A study of Mus musculus with 12 samples.

Results

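The unfolded protein and heat shock response is described here through 38 genes of the 55414 in the count table, 23 of the endoplasmic reticulum (ER) and integrated stress responses and 15 heat shock genes. They were chosen by name, for known roles and with earlier results of these data in view, and each symbol was matched to an Ensembl mouse identifier of the table. The mice were C57BL/6J of wild-type genotype, and RNA of their liver and lung was sequenced 6 h after sham surgery or CLP. The abbreviation is commonly read as cecal ligation and puncture, a mouse model of sepsis from the animal's own gut bacteria. There were 3 libraries in each of 4 groups, sham liver, CLP liver, sham lung and CLP lung, with no age or sex given in the sources used here. Nothing in the labels ties each library to a mouse of its own, so the p-values speak of the spread among these libraries, which may be technical.

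Proteins that enter the ER are folded there by chaperones, and when folding fails a set of sensors in the ER membrane starts the unfolded protein response, which raises ER chaperones and the machinery that extracts and degrades misfolded proteins. One of these sensors, together with kinases that sense amino acid shortage, double-stranded RNA and low heme, phosphorylates the translation factor eIF2α, and this integrated stress response favours translation of the transcription factor Atf4, which drives amino acid synthesis genes and regulators of cell death. The heat shock response is the counterpart in the cytosol and nucleus, where heat shock factor Hsf1 raises cytosolic chaperones. The liver secretes most plasma proteins, including those of the acute phase, so its ER chaperones are abundant.

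Libraries held between 10559895 and 15854117 counts, so that 3 counts equalled 0.189 to 0.284 CPM, the count normalised to library size that is used throughout. The organs carried their own markers, with 8 hepatocyte genes summing to 65700 CPM or more in every liver library and 136 CPM or less in every lung library, and 6 alveolar type 2 genes at 21260 CPM or more in lung and 102 CPM or less in liver. Markers of white blood cells moved with CLP in both organs. All 8 neutrophil markers rose, their sum going from 992 to 1129 CPM in sham lung to 6454 to 9033 CPM in CLP lung, and from 17.7 to 19.9 CPM to 158 to 217 CPM in liver, and none of the 8 was at 0 in any library. In liver all 6 markers of sinusoidal endothelium fell, their sum going from 300.2 to 380.1 CPM to 165 to 211 CPM. In lung 4 of 6 alveolar type 1 markers fell, and the sum of all 6 went from 4090 to 4331 CPM to 2441 to 3453 CPM. The part of these cell types in the results on the stress genes was not tested, and in bulk tissue fewer cells of a type and less RNA per cell cannot be told apart.

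CLP changed 11 of the 37 members tested in liver and 17 of 38 in lung (edgeR's quasi-likelihood test, Benjamini-Hochberg adjusted p under 0.05 over all genes tested). In liver 6 members rose, Atf4, Xbp1, Chac1, Ppp1r15a, Hsp90aa1 and Bag3, which is 16.2% of the members tested beside 21.4% of all genes. A further 5 fell, Atf5, Hspa1b, Hsph1, Dnaja1 and Chordc1, or 13.5% beside 21.0% of all genes. In lung 13 members rose, or 34.2% beside 23.9% of all genes, and 4 fell, or 10.5% beside 24.9%. The same 4 genes, Atf4, Xbp1, Ppp1r15a and Hsp90aa1, rose in both organs, the same 3, Atf5, Hspa1b and Chordc1, fell in both, no member moved in opposite directions, and 17 passed the test in neither. The shares of all genes called in the same or in opposite directions in both organs were not counted. Whether this agreement is particular to the members is therefore not known. With 1 library left out, the count of members higher ran from 5 to 8 in liver and from 10 to 16 in lung. The count of members lower in liver was 3 without CLP replicate 1, and 2 without sham replicate 2 or without sham replicate 3. In lung it was 1 without CLP replicate 1, 2 without CLP replicate 3, and 1 without sham replicate 2 or 3. Groups without overlap were common among all genes. In liver 28.1% of all genes tested had every CLP library above every sham library, and 27.6% had every one below. The lung shares were 28.6% and 31.1%. Of the members tested, 6 lay wholly above and 5 wholly below in liver, and 14 and 5 in lung.

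The members divide into ER and integrated stress genes and heat shock genes. Of the 23 ER and integrated stress genes, 4 rose (17.4% beside 21.4% of all genes) and 1 fell (4.35% beside 21.0%) in liver, with a median log2 fold change of 0.33. In lung 11 of them rose (47.8% beside 23.9%) and 1 fell (4.35% beside 24.9%), with a median of 0.24. Of the heat shock genes, 2 of 14 tested rose (14.3% beside 21.4%) and 4 fell (28.6% beside 21.0%) in liver, with a median of 0.15. In lung 2 of 15 rose (13.3% beside 23.9%) and 3 fell (20% beside 24.9%), with a median of 0.08. The median over all genes tested was -0.01 in liver and -0.03 in lung. The difference between these groups of genes was not tested.

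**Figure D1:**
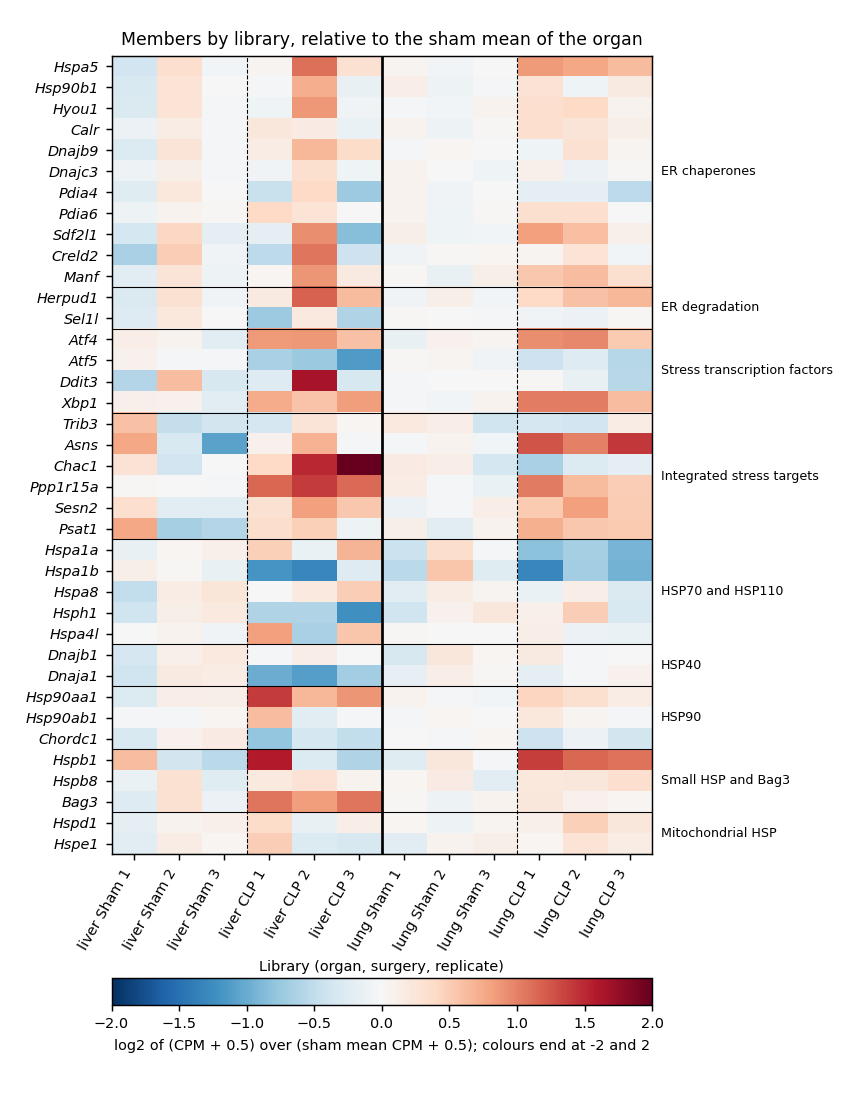
Each of the 38 members (rows, grouped by role) in each of the 12 libraries (columns), as the log2 of its CPM plus 0.5 over the sham mean of the same organ plus 0.5; red is above and blue below the sham mean. The ER chaperone rows are red in CLP replicate 2 of liver and pale in CLP replicates 1 and 3, where the medians of the 11 genes were 0.73, -0.02 and -0.09.

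**Figure D2:**
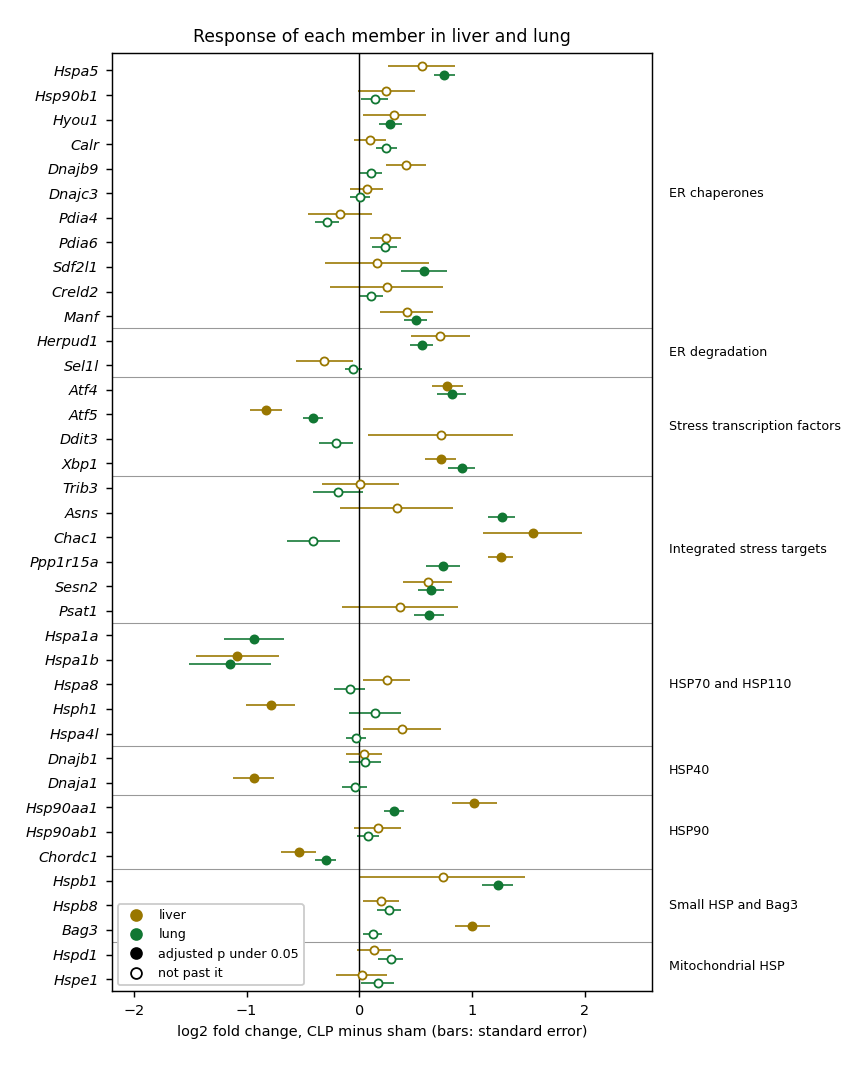
The log2 fold change of each member, CLP minus sham, in liver (brown) and lung (green), with bars of 1 standard error from 3 libraries a group; filled points passed an adjusted p of 0.05. In lung 11 filled points lie to the right of 0 among the 23 ER and integrated stress genes, against 4 in liver; Hspa1a has no liver point because its counts were too low to be tested.

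The 11 ER chaperones and folding factors did not pass the test in liver, where 21.4% of all genes rose and 21.0% fell. In lung 4 of them rose (36.4% beside 23.9% of all genes). Hspa5 encodes BiP, the Hsp70 chaperone of the ER lumen that also holds the stress sensors inactive, and it had the highest level per kilobase of any member in sham liver, 420 CPM per kilobase, with 87.8 in sham lung. In lung it was at 386, 359 and 369 CPM in the sham libraries and 669, 636 and 577 CPM in the CLP libraries. Every CLP lung was above every sham lung, and the log2 fold change was 0.76 ± 0.09 (SE, n = 3 a group, adjusted p = 0.000433). In liver Hspa5 was at 1364, 2249 and 1712 CPM in the sham libraries and 1839, 3792 and 2181 CPM in the CLP libraries. The groups overlapped there, with CLP replicate 2 far above the other CLP livers, and the log2 fold change of 0.55 ± 0.30 did not pass (adjusted p = 0.173).

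Manf, a secreted ER protein that protects cells under ER stress, rose in lung by a log2 of 0.50 ± 0.11 (adjusted p = 0.0052), from 48.8 ± 4.68 to 69.0 ± 7.09 CPM (SD, n = 3). Sdf2l1, a partner of BiP, rose by 0.58 ± 0.20 (adjusted p = 0.0443) at a low level, 6.68 ± 0.56 CPM in sham and 9.92 ± 2.51 CPM in CLP lung. Hyou1, the Hsp110-like exchange factor of BiP, rose by 0.28 ± 0.10 (adjusted p = 0.0468), from 100.1 ± 4.77 to 121 ± 14.5 CPM. For both Sdf2l1 and Hyou1 the sham and CLP lungs overlapped, and the calls were lost with any of 5 libraries left out. For Sdf2l1 the adjusted p was 0.152 and 0.0731 without CLP replicates 1 and 2, and 0.0767, 0.128 and 0.108 without sham replicates 1, 2 and 3. For Hyou1 it was 0.128 and 0.0806 without CLP replicates 1 and 2, and 0.134, 0.155 and 0.0597 without sham replicates 1, 2 and 3.

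The other 7 ER factors did not pass in lung. Hsp90b1, the ER form of Hsp90 and the ER chaperone with the highest mean CPM over the 6 lung libraries (in the CLP lungs alone it was Hspa5, at 627 against 609.9 CPM), was at 606, 516 and 542 CPM in sham and 676, 525 and 628 CPM in CLP lung, groups that overlapped (log2 fold change 0.14 ± 0.12, adjusted p = 0.377). Calr, the lectin chaperone calreticulin, and Pdia4, a disulfide isomerase, did not overlap between groups but stood on opposite sides. Calr had a log2 fold change of 0.24 ± 0.09 (adjusted p = 0.0637) and Pdia4 one of -0.29 ± 0.10 (adjusted p = 0.0506). Without CLP replicate 3, Calr passed at 0.33 (adjusted p = 0.0102) and Pdia6, another disulfide isomerase, at 0.37 (adjusted p = 0.0041). The remaining log2 fold changes were 0.10 for Dnajb9 and for Creld2, 0.01 for Dnajc3 and 0.22 for Pdia6.

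In liver the ER chaperones stood highest in 1 library of each group. CLP replicate 2 was the highest of all 6 livers for 9 of the 11 genes, with a median log2 of 0.73 over the sham mean, while CLP replicates 1 and 3 had medians of -0.02 and -0.09. Sham replicate 2 was the highest sham liver for all 11, with a median of 0.27 against -0.28 and -0.04 in sham replicates 1 and 3. Creld2, a disulfide isomerase-like ER stress target, was at 97.5, 215 and 145 CPM in sham and 106, 321 and 115 CPM in CLP liver. Sdf2l1 was at 43.7, 74.7 and 49.3 CPM in sham and 48.9, 107 and 30.8 CPM in CLP liver. For both genes CLP replicates 1 and 3 lay below the sham mean and CLP replicate 2 above every sham liver.

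With CLP replicate 2 left out, the liver log2 fold change of Hspa5 was 0.18, of Hsp90b1 -0.08, of Hyou1 -0.07, of Sdf2l1 -0.48 and of Creld2 -0.46, none of which passed the test. Pdia4 then passed in the lower direction at -0.57 (adjusted p = 0.0257). Dnajb9, an ER DnaJ protein that restrains the sensor Ire1, had a liver log2 fold change of 0.41 ± 0.18 (adjusted p = 0.0929) and passed at 0.57 without sham replicate 2 (adjusted p = 0.0485). The 6 plasma cell markers, from a cell type rich in ER chaperones, summed to 129 to 239 CPM in sham and 183 to 270 CPM in CLP liver. Of these Sdc1, which hepatocytes also express, made up most, Mzb1 was at 0 in all 3 CLP livers, and Tnfrsf17 was at 0 in all 3 sham livers.

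**Figure D3:**
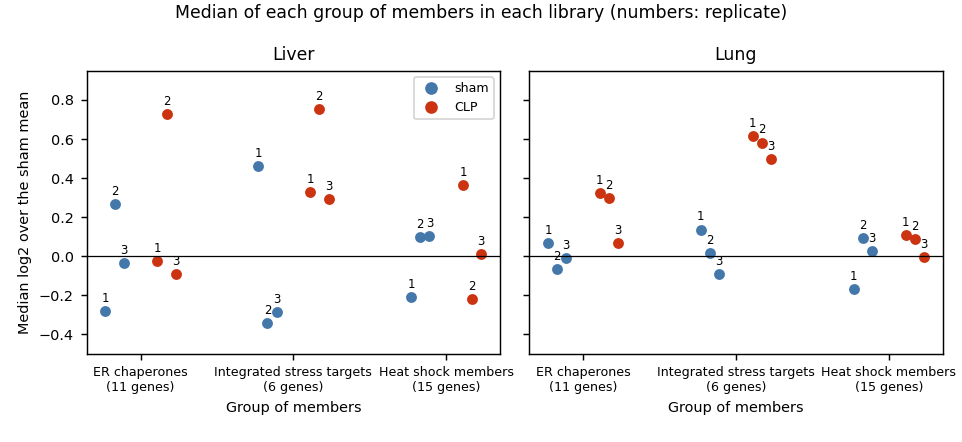
Median over the genes of a role of the log2 of CPM plus 0.5 over the sham mean plus 0.5, for each library (points, numbered by replicate), in liver (left) and lung (right). For the ER chaperones liver CLP replicate 2 lies at 0.73 and the other CLP livers at -0.02 and -0.09, while the integrated stress targets of all 3 CLP lungs, at 0.50 to 0.62, lie above the sham lungs, at -0.09 to 0.14.

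Promoters are shown because the elements through which these responses are known to act can be read in them. The elements were searched on both strands in windows of 250 bases before to 50 bases after the RefSeq start sites (build GRCm38.p6, an older build than the mm39 named for the counts), which gave a window for 33 of the 38 members. Hsp90aa1, Hsp90ab1, Hspa8, Hyou1 and Manf had no entry in the table. The ER stress element, CCAAT followed by 9 other bases and CCACG, was found in 6 of 21 ER and integrated stress genes (28.6%), in none of 12 heat shock genes, and in 37 of all 27025 genes (0.137%). Its matches are given along the strand of the element, with the fixed letters in capitals. Distances are from the start site, whose first transcribed base is +1.
Hspa5, -65 to -47: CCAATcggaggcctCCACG
Hsp90b1, -212 to -194: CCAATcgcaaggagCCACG
Hsp90b1, -107 to -89: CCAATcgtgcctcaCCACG
Dnajc3, -105 to -87: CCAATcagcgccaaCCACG
Pdia6, -98 to -80: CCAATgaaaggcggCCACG
Calr, -162 to -144: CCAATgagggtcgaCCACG
Creld2, -126 to -108: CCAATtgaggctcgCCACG
All 7 matches share the 2 fixed ends and differ in the bases between. Among these 6 genes, Hspa5 was the member that passed the test in lung, and no gene of the 6 passed in liver. The unfolded protein response element TGACGTGG was found in no member window and in 0.714% of all genes.

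The 250 bases before the start of Hspa5 (chr2:34771840-34772089, + strand) and of Hsp90b1 (chr10:86705445-86705694, - strand) are printed whole, with the matches in capitals as they lie on the strand of the gene.
Hspa5: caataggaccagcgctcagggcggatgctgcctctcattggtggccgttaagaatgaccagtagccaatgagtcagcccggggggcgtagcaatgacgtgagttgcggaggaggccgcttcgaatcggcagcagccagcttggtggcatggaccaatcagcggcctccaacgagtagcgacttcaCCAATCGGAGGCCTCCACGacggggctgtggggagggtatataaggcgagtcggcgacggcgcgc
Hsp90b1: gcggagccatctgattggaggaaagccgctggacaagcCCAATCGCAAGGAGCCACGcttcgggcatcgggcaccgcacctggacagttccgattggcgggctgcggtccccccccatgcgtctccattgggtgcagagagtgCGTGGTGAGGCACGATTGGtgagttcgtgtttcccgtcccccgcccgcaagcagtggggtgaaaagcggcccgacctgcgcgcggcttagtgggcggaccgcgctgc
In Hspa5 the match lies close to the start, and Hsp90b1 has a pair of matches, one on each strand.

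**Figure D4:**
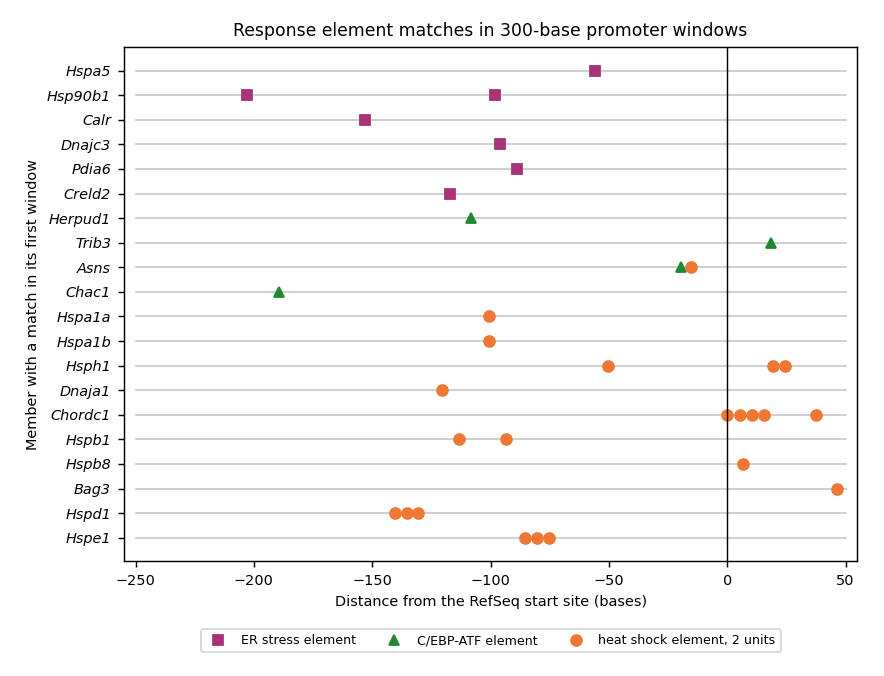
Matches to 3 response elements (marker shapes) in the first promoter window of each member that has one, by distance from the RefSeq start site in bases. Squares for the ER stress element sit in ER chaperone rows, between -212 and -47 bases, and circles for paired heat shock units sit in heat shock gene rows and in Asns.

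Herpud1 and Sel1l belong to the complex that moves misfolded proteins out of the ER for degradation. Herpud1 was at 250, 285 and 254 CPM in sham and 347, 395 and 415 CPM in CLP lung, with every CLP lung above every sham lung, and it rose by a log2 of 0.55 ± 0.10 (adjusted p = 0.0026). In liver it was at 382, 577 and 449 CPM in sham and 530.4, 1063 and 726 CPM in CLP libraries. The groups overlapped at the lowest CLP liver, and the log2 fold change of 0.72 ± 0.26 did not pass (adjusted p = 0.0598), but did without CLP replicate 1, at 0.94 (adjusted p = 0.0162). Sel1l, the adaptor of the ubiquitin ligase of this complex, did not pass in either organ (-0.31 ± 0.25 in liver and -0.05 ± 0.08 in lung). Without liver CLP replicate 2, Sel1l passed in the lower direction at -0.66 (adjusted p = 0.0109).

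Of the 4 transcription factors of these responses, Atf4 and Xbp1 rose and Atf5 fell in both organs. Atf4, the main effector of the integrated stress response, was at 123, 118 and 95.7 CPM in sham and 204, 206 and 168 CPM in CLP liver. The lungs had 135, 159 and 156 CPM after sham and 287, 291 and 215 CPM after CLP. The groups did not overlap in either organ, and the log2 fold changes were 0.78 ± 0.14 in liver (adjusted p = 0.00261) and 0.82 ± 0.13 in lung (adjusted p = 0.00146). Xbp1, whose messenger RNA is spliced by Ire1 into the form that encodes an active factor, was at 497, 492 and 398 CPM in sham and 776, 690.3 and 825 CPM in CLP liver. In lung Xbp1 was at 196, 191 and 208 CPM in sham and 406, 406 and 306 CPM in CLP libraries. All CLP values lay above all sham values, with log2 fold changes of 0.72 ± 0.14 in liver (adjusted p = 0.00367) and 0.91 ± 0.12 in lung (adjusted p = 0.000649). Counts per gene do not separate the spliced from the unspliced form of Xbp1.

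Atf5, a factor related to Atf4 that is abundant in hepatocytes, was at 258, 237 and 237 CPM in sham and 156, 146 and 111 CPM in CLP liver. The lungs had 75.2, 76.5 and 70.3 CPM in sham and 55.3, 61.6 and 49.9 CPM in CLP libraries. Every CLP library was below every sham library of its organ, and the log2 fold changes were -0.83 ± 0.14 in liver (adjusted p = 0.00235) and -0.41 ± 0.09 in lung (adjusted p = 0.00687). Ddit3, the death-promoting factor CHOP, did not pass in either organ. In liver it was at 4.73, 11.5 and 5.81 CPM in sham and 6.08, 24.1 and 5.75 CPM in CLP libraries, so that sham replicate 2 and CLP replicate 2, the libraries highest for ER chaperones within their groups, were also highest for Ddit3 in theirs. The liver log2 fold change of 0.72 ± 0.65 (adjusted p = 0.406) was -0.30 without CLP replicate 2, and in lung it was -0.21 ± 0.15 (adjusted p = 0.293).

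The 6 targets of the integrated stress response included 4 that rose in lung (66.7% beside 23.9% of all genes) and 2 that rose in liver (33.3% beside 21.4%). Asns, asparagine synthetase, gave the largest log2 fold change of the 38 members in lung. It was at 14.5, 15.3 and 14.1 CPM in sham and 35.9, 30.02 and 39.8 CPM in CLP lung, with no overlap, and rose by a log2 of 1.26 ± 0.12 (adjusted p = 0.000157). In liver Asns was at 9.02, 4.0 and 2.16 CPM in sham and 5.39, 8.51 and 4.93 CPM in CLP libraries. These overlapped, with sham replicate 1 above every CLP liver, and the log2 fold change was 0.33 ± 0.50 (adjusted p = 0.625). Psat1, an enzyme of serine synthesis, rose in lung by 0.62 ± 0.13 (adjusted p = 0.00514), from 10.6 ± 1.29 to 16.3 ± 1.26 CPM. In liver Psat1 was near 1 or 2 CPM, also highest in sham replicate 1 (3.06 CPM), and passed at 1.23 without that library (adjusted p = 0.033). Sham replicate 1 was the highest sham liver for all 6 targets.

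Ppp1r15a, which encodes the phosphatase subunit GADD34 that ends the integrated stress response by removing phosphate from eIF2α, gave the lowest p of the members in liver. It was at 15.1, 14.8 and 14.7 CPM in sham and 33.7, 40.0 and 33.1 CPM in CLP liver, more than 2 times the sham level in every CLP library, and rose by a log2 of 1.26 ± 0.11 (adjusted p = 0.000106). In lung it was at 68.9, 60.2 and 56.5 CPM in sham and 128, 95.7 and 86.8 CPM in CLP libraries, with no overlap, and rose by 0.74 ± 0.15 (adjusted p = 0.00461). Sesn2, a leucine sensor that restrains mTORC1, was at 26.7, 28.2 and 31.8 CPM in sham and 41.6, 51.7 and 41.5 CPM in CLP lung and rose by 0.64 ± 0.12 (adjusted p = 0.00259). In liver Sesn2 had a log2 fold change of 0.61 ± 0.22 just outside the threshold (adjusted p = 0.0507), and it passed at 0.74 without CLP replicate 1 (adjusted p = 0.038) and at 0.84 without sham replicate 1 (adjusted p = 0.0189).

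Chac1, which degrades glutathione, was at 16.0, 9.86 and 13.1 CPM in sham and 17.3, 37.7 and 58.9 CPM in CLP liver. The groups did not overlap, but the lowest CLP liver was close to the highest sham liver, and the log2 fold change was 1.54 ± 0.44 (adjusted p = 0.0315). The liver call on Chac1 was lost with 5 of the 6 libraries left out, at an adjusted p of 0.0916 and 0.0545 without CLP replicates 2 and 3 and of 0.0532, 0.0879 and 0.0936 without sham replicates 1, 2 and 3. In lung Chac1 was at 4.88, 4.79 and 3.29 CPM in sham and 2.57, 3.48 and 3.73 CPM in CLP libraries, which overlapped (-0.41 ± 0.24, adjusted p = 0.188). Trib3, a pseudokinase that feeds back on Atf4 and Ddit3, stayed under 10 CPM in every library and passed in neither organ, with log2 fold changes of 0.01 ± 0.34 in liver and -0.19 ± 0.22 in lung.

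The element bound by C/EBP and ATF factors such as Atf4, TGATGNAA, was found in 4 of these 21 ER and integrated stress genes (Asns, Chac1, Herpud1 and Trib3; 19.0%), in none of 12 heat shock genes and in 4.51% of all genes. It is shown in the upstream bases of Asns (chr6:7693210-7693459, - strand) and Chac1 (chr2:119350992-119351241, + strand), since these gave the largest log2 fold changes of the 38 members in lung and in liver. Of the 4 genes with the element, Asns and Herpud1 passed the test in lung only and Chac1 in liver only. Trib3 passed in neither organ. Ppp1r15a, Psat1 and Sesn2, whose windows held no match, also rose in lung. In Asns the capitals cover the element at -23 to -16 and a heat shock pair that overlaps it, and in Chac1 they mark the element on the opposite strand at -193 to -186.
Asns: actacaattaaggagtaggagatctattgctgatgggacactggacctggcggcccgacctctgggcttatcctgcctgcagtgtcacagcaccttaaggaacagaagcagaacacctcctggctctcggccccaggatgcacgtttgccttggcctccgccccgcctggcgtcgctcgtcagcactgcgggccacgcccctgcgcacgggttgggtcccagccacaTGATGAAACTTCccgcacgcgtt
Chac1: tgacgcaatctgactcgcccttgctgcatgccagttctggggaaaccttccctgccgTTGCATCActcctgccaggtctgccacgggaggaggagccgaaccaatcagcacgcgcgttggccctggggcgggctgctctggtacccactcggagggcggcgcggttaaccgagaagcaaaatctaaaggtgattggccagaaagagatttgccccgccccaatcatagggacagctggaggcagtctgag

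Among the Hsp70 and Hsp110 genes, the inducible Hsp70 pair Hspa1a and Hspa1b, which rise steeply in heat-shocked cells, were lower after CLP in lung. Hspa1b was at 2.6, 6.06 and 3.29 CPM in sham and 1.32, 2.27 and 1.82 CPM in CLP lung, and at 3.20, 2.97 and 2.57 CPM in sham and 1.00, 0.883 and 2.36 CPM in CLP liver. The groups did not overlap in either organ, and it fell by 1.15 ± 0.37 on the log2 scale in lung (adjusted p = 0.0311) and by 1.08 ± 0.37 in liver (adjusted p = 0.0438). Hspa1a was at 2.93, 5.39 and 4.03 CPM in sham and 2.10, 2.43 and 1.91 CPM in CLP lung and fell by 0.94 ± 0.27 (adjusted p = 0.0194), while in liver it was at 0.513 CPM or less in every library and was not tested. Of the 50-base stretches of their transcripts, 60.3% in Hspa1a and 62.3% in Hspa1b also occur in other genes, mostly in the other gene of the pair. Reads can therefore pass between them, and Hspa1a overlaps another gene on the opposite strand. With the counts of both summed, the fall was 1.04 ± 0.28 in lung (adjusted p = 0.0167), and the liver value was -0.84 ± 0.37 (adjusted p = 0.0985).

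These calls were lost with single libraries left out. For Hspa1b the adjusted p in liver was 0.132 and 0.115 without CLP replicates 1 and 2 and 0.109, 0.0983 and 0.0744 without sham replicates 1, 2 and 3. In lung it was 0.104 and 0.062 without CLP replicates 1 and 3 and 0.109 and 0.0531 without sham replicates 2 and 3. For Hspa1a in lung it was 0.0567 without CLP replicate 1 and 0.0757 and 0.0586 without sham replicates 2 and 3. Hsph1, an Hsp110 exchange factor for Hsp70, was at 23.7, 34.2 and 36.2 CPM in sham and 20.5, 20.5 and 13.1 CPM in CLP liver, with no overlap, and fell by 0.79 ± 0.21 on the log2 scale (adjusted p = 0.0202). That call was lost without sham replicate 2 (adjusted p = 0.065) or sham replicate 3 (adjusted p = 0.0678), and in lung Hsph1 had a log2 fold change of 0.14 ± 0.23 (adjusted p = 0.657).

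Hspa8, the constitutive cytosolic Hsp70 and the most highly counted of these genes, was at 128, 199.7 and 212 CPM in sham and 182, 205 and 253 CPM in CLP liver. The lung values were 142, 183 and 173 CPM in sham and 151, 183 and 136 CPM in CLP libraries. The groups overlapped in both organs and neither log2 fold change passed (0.24 ± 0.21 and -0.09 ± 0.13). Hspa4l, another Hsp110 gene, was at 15.1, 16.1 and 14.5 CPM in sham and 27.4, 9.47 and 22.6 CPM in CLP liver, with CLP replicate 2 below and the other CLP livers above every sham. It did not pass (0.38 ± 0.35) but did at 0.73 without CLP replicate 2 (adjusted p = 0.00263), and in lung its log2 fold change was -0.03 ± 0.09.

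The Hsp40 proteins deliver clients to Hsp70. Dnaja1 was at 35.4, 53.2 and 52.3 CPM in sham and 23.3, 21.6 and 28.8 CPM in CLP liver, with no overlap, and fell by 0.94 ± 0.18 on the log2 scale (adjusted p = 0.00406). The lung values were 38.6, 47.6 and 44.4 CPM in sham and 38.2, 42.4 and 46.4 CPM in CLP libraries, which overlapped throughout (-0.04 ± 0.11, adjusted p = 0.772). Exons of Dnaja1 overlap those of Smu1 on the opposite strand over 608 bases, and whether the counting used strand is not given. Dnajb1, the main inducible Hsp40, did not pass in either organ, at 12.9 ± 2.5 and 13.3 ± 0.87 CPM in sham and CLP liver and 40.5 ± 7.54 and 41.9 ± 3.45 CPM in sham and CLP lung.

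Hsp90aa1, the stress-inducible cytosolic Hsp90, rose in both organs. It was at 28.6, 38 and 37.5 CPM in sham and 91.8, 55.1 and 64.6 CPM in CLP liver, and at 69.6, 65.3 and 63.7 CPM in sham and 89.2, 82.4 and 73.6 CPM in CLP lung. Neither organ had an overlap, and the log2 fold changes were 1.02 ± 0.20 in liver (adjusted p = 0.00524) and 0.30 ± 0.09 in lung (adjusted p = 0.0217). The lung call was lost without CLP replicate 1 (adjusted p = 0.0721), sham replicate 2 (adjusted p = 0.0794) or sham replicate 3 (adjusted p = 0.0632), and 47.5% of the 50-base stretches of Hsp90aa1 also occur in other genes, mostly a pseudogene. Hsp90ab1, the constitutive form, was at 371, 373 and 389.9 CPM in sham and 578, 324 and 367 CPM in CLP liver, and at 679, 721 and 701 CPM in sham and 811, 732 and 680.2 CPM in CLP lung. It overlapped in both organs and did not pass, with log2 fold changes of 0.16 ± 0.21 and 0.08 ± 0.10.

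Chordc1, an Hsp90 cochaperone that also responds to heat, was lower after CLP in both organs without overlap. It was at 27.9, 36.8 and 38.7 CPM in sham and 20, 27 and 24.3 CPM in CLP liver, and fell by 0.54 ± 0.16 on the log2 scale (adjusted p = 0.0241). Its lung values were 48.9, 48.7 and 50.6 CPM in sham and 36.8, 45.4 and 38.1 CPM in CLP libraries, and it fell by 0.30 ± 0.09 (adjusted p = 0.0299). The liver call on Chordc1 was lost without CLP replicate 1 or 3 (adjusted p = 0.0765 and 0.0568) and without sham replicate 2 or 3 (adjusted p = 0.081 and 0.0859). The lung call was lost without CLP replicate 1 or 3 (adjusted p = 0.0997 and 0.0912) and without any sham replicate (adjusted p = 0.0703, 0.0709 and 0.128).

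Of the small heat shock proteins and their partner, Bag3 rose in liver and Hspb1 in lung. Bag3, which links Hsp70 and small heat shock proteins to autophagy, was at 39.5, 58.3 and 43.6 CPM in sham and 99.8, 84.4 and 99.4 CPM in CLP liver, with no overlap, and rose by a log2 of 1.00 ± 0.15 (adjusted p = 0.00131). In lung it was at 56.0, 51.0 and 57.6 CPM in sham and 64.2, 58.3 and 56.4 CPM in CLP libraries, which overlapped (0.12 ± 0.08, adjusted p = 0.275). Hspb1, the small heat shock protein Hsp27 of human (Hsp25 of mouse), was at 16.1, 22.5 and 18.7 CPM in sham and 50.4, 42.7 and 41.2 CPM in CLP lung, with no overlap. It rose by 1.23 ± 0.14 (adjusted p = 0.000284), and 48.8% of its 50-base stretches also occur in its pseudogene Hsp25-ps1.

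In liver Hspb1 was at 3.27, 1.41 and 1.20 CPM in sham and 6.85, 1.53 and 1.13 CPM in CLP libraries, and the log2 fold change of 0.74 ± 0.73 became -0.52 without CLP replicate 1, passing in neither case. Hspb8, the partner of Bag3, was at 326, 444 and 303 CPM in sham and 411, 435 and 377 CPM in CLP liver, and at 87.8, 95.4 and 72.9 CPM in sham and 99, 100.3 and 108 CPM in CLP lung. The livers overlapped and the lungs did not, and neither log2 fold change passed (0.19 ± 0.16 and 0.27 ± 0.11, adjusted p = 0.371 and 0.0671). The lung value passed at 0.35 without sham replicate 2 (adjusted p = 0.0448).

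Hspd1 and Hspe1 encode the mitochondrial chaperonin Hsp60 and its lid Hsp10, and neither passed in either organ. Hspd1 was at 158, 189 and 194 CPM in sham and 232, 163 and 198 CPM in CLP liver, and at 41.5, 37.7 and 42.1 CPM in sham and 43.2, 56.7 and 47.3 CPM in CLP lung. The livers overlapped, and every CLP lung was above every sham lung, with a log2 fold change of 0.28 ± 0.11 (adjusted p = 0.0673). That value passed at 0.36 without CLP replicate 1 (adjusted p = 0.0342) and at 0.34 without CLP replicate 3 (adjusted p = 0.0392). Hspe1 had log2 fold changes of 0.02 ± 0.23 in liver and 0.17 ± 0.15 in lung. CLP replicate 1 of liver was the highest of the 6 livers for 7 of the 15 heat shock genes, among them Hsp90aa1, Hsp90ab1, Hspb1, Hspd1 and Hspe1, and for 2 of the 11 ER chaperones.

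**Figure D5:**
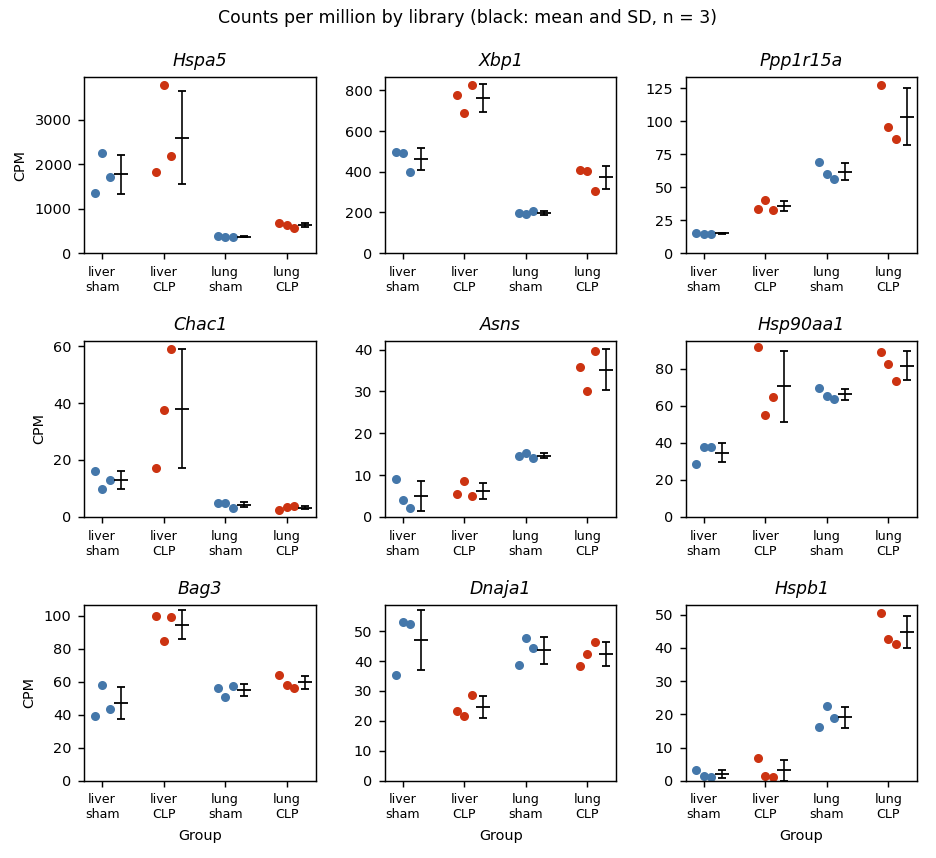
CPM of 9 members in every library of the 4 groups (points), with the mean and SD of 3 libraries (black). Dnaja1 fell and Bag3 rose in liver while their lung groups overlap, Asns and Hspb1 rose in lung while their liver groups overlap, and Hspa5 shows the high CLP replicate 2 of liver at 3792 CPM.

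Heat shock elements, which bind trimers of Hsf1, were searched as paired inverted units, GAANNTTC or TTCNNGAA, and as 3 such units in a row. The pair was found in 10 of 12 heat shock genes with a window (83.3%), in 2 of 21 ER and integrated stress genes (9.52%) and in 17% of all genes. The run of 3 units was found in 4 of 12 heat shock genes (33.3%), in no ER or integrated stress gene and in 0.662% of all genes, and every such run also holds the pair. One run from each of these 4 genes is given here with the fixed letters in capitals.
Hsph1, 16 to 28: TTCtgGAAagTTC
Chordc1, 2 to 14: TTCggGAAaaTTC
Hspd1, -139 to -127: GAAggTTCtaGAA
Hspe1, -89 to -77: TTCtaGAAccTTC
Hspd1 and Hspe1 lie head to head on opposite strands, so their windows share bases. Their heat shock matches are the same stretch read from either strand. That stretch is counted for both genes in the shares above, and the 2 runs printed for them are not separate elements. Of the 4 genes with a run of 3 units, Chordc1 fell in both organs and Hsph1 in liver, and Hspd1 and Hspe1 passed in neither. Among the 10 with a pair, Bag3 rose in liver and Hspb1 in lung, Hspa1b, Hsph1, Dnaja1 and Chordc1 fell in liver, and Hspa1a, Hspa1b and Chordc1 fell in lung.

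The upstream bases of Dnaja1 (chr4:40722218-40722467, + strand, the first of its 3 windows) and Hspb1 (chr5:135887669-135887918, + strand) are shown as a pair of heat shock genes that moved in opposite directions in different organs, with the paired units in capitals.
Dnaja1: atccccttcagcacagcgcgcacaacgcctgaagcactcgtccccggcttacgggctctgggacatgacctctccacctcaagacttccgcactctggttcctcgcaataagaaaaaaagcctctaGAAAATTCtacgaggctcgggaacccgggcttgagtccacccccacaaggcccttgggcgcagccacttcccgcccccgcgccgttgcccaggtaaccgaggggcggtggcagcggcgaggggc
Hspb1: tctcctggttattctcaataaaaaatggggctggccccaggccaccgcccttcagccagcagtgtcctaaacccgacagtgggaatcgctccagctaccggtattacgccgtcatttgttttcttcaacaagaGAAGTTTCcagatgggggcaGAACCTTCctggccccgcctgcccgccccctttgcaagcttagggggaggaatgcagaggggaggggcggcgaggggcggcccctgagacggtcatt
Dnaja1 holds 1 pair and Hspb1 holds 2, and the promoter windows of Hspa1a and Hspa1b, with 1 pair each at the same place, are identical at 296 of 300 bases.

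Whether the response differed between the organs was tested as the lung log2 fold change minus that of liver in 1 model of all 12 libraries. Of the 38 members 1 was higher by this test, or 2.63% beside 8.89% of all genes, and 3 were lower, or 7.89% beside 8.84%. Dnaja1, which fell in liver, was the member with the higher response in lung (0.87 ± 0.22, adjusted p = 0.0162). The responses of Bag3 (-0.91 ± 0.19, adjusted p = 0.00453), Hsp90aa1 (-0.74 ± 0.23, adjusted p = 0.0437) and Chac1 (-1.97 ± 0.57, adjusted p = 0.0341) were higher in liver. For Bag3 and Dnaja1 the call held in each of 19 alternatives, with differences of -1.03 to -0.72 and of 0.79 to 1.12.

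The calls on Chac1 and Hsp90aa1 in this comparison lay near the threshold and were lost when any of most libraries was left out. With 1 library left out the difference kept its sign, at -2.26 to -1.46 for Chac1 and -0.83 to -0.43 for Hsp90aa1. For Chac1 the adjusted p was 0.062 without liver CLP replicate 2, 0.0755 and 0.0676 without liver sham replicates 2 and 3, 0.0875, 0.0754 and 0.0632 without lung CLP replicates 1, 2 and 3, and 0.0789 and 0.0818 without lung sham replicates 1 and 2. For Hsp90aa1 it was over the threshold with any library left out other than liver CLP replicate 2, at 0.152 and 0.0795 without liver CLP replicates 1 and 3 and at 0.0521 to 0.153 without the others. No ER chaperone passed, with differences of -0.34 to 0.39, so the 4 calls in lung against none in liver do not by themselves show that the organs responded differently. The same holds for Asns, whose difference of 0.90 ± 0.52 had an adjusted p of 0.272, and which was 0.26 without liver sham replicate 1 (adjusted p = 0.695) and passed at 1.33 without liver sham replicate 3 (adjusted p = 0.0398). For Hspb1 the difference was 0.44 ± 0.72 (adjusted p = 0.75), with -0.06 without liver sham replicate 1 and 1.79 without liver CLP replicate 1, where it passed (adjusted p = 0.0258).

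The sham libraries gave the levels of the members without CLP. All 11 ER chaperones were lower in sham lung than in sham liver, with log2 differences of -4.42 (Sdf2l1) to -1.93 (Dnajc3) and a median of -3.28 on libraries scaled together. Their median was -1.96 on library totals and -3.03 with upper-quartile scaling, and all 11 stayed lower under each. Of the 38 members 28 were lower in lung by the test (73.7% beside 36.5% of all genes) and 6 higher (15.8% beside 44.4%), but on library totals the counts were 18 and 14. The median log2 difference of all genes was 0.19 as scaled and 1.5 on library totals. For the heat shock genes the direction depended on that scaling: 11 of 15 were lower in lung as scaled, with a median of -0.90, and 5 of 15 on library totals, with a median of 0.41.

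Per kilobase of exon, with each organ scaled on its own, the leading members in sham liver were Hspa5 at 420, Hsp90b1 at 327 and Calr at 313 CPM per kilobase. In sham lung the leading member was Hsp90ab1 at 234 CPM per kilobase, followed by Hsp90b1 at 138, Calr at 116 and Herpud1 at 113. Hspb1 was at 1.90 CPM per kilobase in sham liver and 18.5 in sham lung, and Hspb8 at 183 and 43.8. The members thus differed in which chaperones led in each organ, the ER forms in liver and the constitutive cytosolic Hsp90 in lung. Ppp1r15a, Sesn2, Hspa4l, Psat1 and Hspb1 were higher in sham lung as scaled, by log2 differences of 0.69 to 1.95, and they stayed higher on library totals and with upper-quartile scaling. The count of 6 higher members also includes Hspa1a, which had 1, 2 and 3 counts in the sham livers, so no fold is given and its call is not relied on. Its reads can pass to Hspa1b, which was lower in sham lung as scaled (-0.90) and higher on library totals (0.41).

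Other genes of the same pathways were counted from lists. Of 18 sensors and regulators of ER and integrated stress, 6 rose (33.3% beside 21.4% of all genes) and 2 fell (11.1% beside 21.0%) in liver. Of 17 tested in lung 6 rose (35.3% beside 23.9%) and 2 fell (11.8% beside 24.9%). The lowest p in liver belonged to Atf3, a stress-induced repressor and activator (log2 2.65 ± 0.23), and the double-stranded RNA kinase Eif2ak2 (2.19 ± 0.21). In lung it belonged to Ppp1r15b, the constitutive counterpart of Ppp1r15a (0.83 ± 0.08), and Nupr1 (1.35 ± 0.15). The 3 ER sensors, chosen after their values were seen, differed among themselves. Ern1, which encodes Ire1, fell in liver by 1.25 ± 0.23 on the log2 scale (adjusted p = 0.00377) and was 0.05 ± 0.07 in lung. Eif2ak3, which encodes Perk, rose in liver by 0.49 ± 0.11 (adjusted p = 0.0081) and was -0.22 ± 0.09 in lung (adjusted p = 0.0667). Atf6 rose in lung by 0.46 ± 0.08 (adjusted p = 0.00218) and was 0.29 ± 0.15 in liver (adjusted p = 0.155).

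Of further integrated stress targets, 12 of 23 rose (52.2% beside 21.4% of all genes) and 2 fell (8.7% beside 21.0%) in liver, with a median log2 of 0.40. In lung 19 of 25 rose (76% beside 23.9%) and 1 fell (4% beside 24.9%), with a median of 0.64. In liver the lowest p belonged to Cebpb (1.76 ± 0.11) and the arginine transporter Slc7a1 (3.00 ± 0.35), and in lung to the mitochondrial folate enzyme Mthfd2 (2.00 ± 0.15) and Slc7a1 (1.67 ± 0.13). Of 35 other ER folding and degradation genes, 5 rose in liver (14.3%, below the 21.4% of all genes) and 2 fell (5.71% beside 21.0%). They were led by Nploc4 (0.55 ± 0.09) and Ufd1 (0.40 ± 0.09), which work with the segregase Vcp. In lung 10 rose (28.6%, near the 23.9% of all genes) and 2 fell (5.71% beside 24.9%). These were led by Dnajc1 (-0.41 ± 0.08) and Dnajb11 (0.38 ± 0.07), both ER DnaJ proteins. The median log2 fold changes of the 35 genes were 0.13 in liver and 0.14 in lung.

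Of 11 heat shock factors and regulators, 2 rose (18.2% beside 21.4% of all genes) and 3 fell (27.3% beside 21.0%) in liver. In lung 1 rose (9.09% beside 23.9%) and 2 fell (18.2% beside 24.9%). Hsf2 (-1.63 ± 0.18) and Hsf4 (-1.79 ± 0.30) had the lowest p in liver, and Hsf4 (-0.97 ± 0.18) and Atf1 (0.51 ± 0.08) in lung. Hsf1, also chosen after its values were seen, passed in neither organ (-0.21 ± 0.14 and -0.10 ± 0.11). Of the other heat shock genes and cochaperones, 7 of 36 rose (19.4% beside 21.4% of all genes) and 4 fell (11.1% beside 21.0%) in liver. They were led by Hspa14 (1.26 ± 0.15) and Dnajb4 (-1.23 ± 0.21). In lung 13 of 37 rose (35.1% beside 23.9%) and 7 fell (18.9% beside 24.9%). There Hspa9, the mitochondrial Hsp70, rose by 0.90 ± 0.07 and Cryab, the small heat shock protein αB-crystallin of muscle and lens, fell by 0.99 ± 0.10. Muscle markers summed to 432 to 520 CPM in sham lung and 108 to 657 CPM in CLP lung, and their part in the value of Cryab was not tested.

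Immediate early genes, which also respond to surgery and tissue handling, were counted beside these. All 9 tested in liver rose (100% beside 21.4% of all genes), and 9 of 10 rose in lung (90% beside 23.9%), with medians of 1.98 and 1.90. Dusp1, a phosphatase of this set, rose by 1.97 ± 0.18 in liver and 1.89 ± 0.16 in lung, and Ier2 rose by 1.41 ± 0.15 in lung. Atf3, in this list too, had the lowest p of it in liver. The part of tissue handling in the values of the stress genes was not tested.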

How the data were processed

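Total RNA of liver and lung was sequenced with a stranded Illumina TruSeq kit on a NextSeq500, per the labels' protocols. The authors deposited 1 table of raw counts per gene, whole numbers without normalization, and its 12 columns match library names in the labels. STAR 2.7.10a, featureCounts, FastQC, DESeq2 and the build mm39 are named in the submitters' processing notes, with no role stated. Not given in the sources used here are the annotation release, whether counting used strand, and how reads with several matches were handled.

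Symbols were matched by identifier for 52081 of 55414 genes. Ddit3 has 2 identifiers, and the one with counts was used. Low genes were removed with filterByExpr by group (at least 10 counts, 15 in total), library sizes were corrected by TMM (trimmed mean of M values), and groups were compared by edgeR's quasi-likelihood test (version 4.0.16, R 4.3.3, limma 3.58.1), two-sided, with Benjamini-Hochberg adjustment over all genes tested and a threshold of 0.05. Each organ was fitted alone with 6 libraries, and the difference between organs in 1 model of 12. CPM are on the scaled sizes within an organ, and the standard error is the log2 fold change divided by the square root of F, an approximation. No 2 replicates agreed within sampling noise (chi-square per degree of freedom 5.28 to 37.6).

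The members and lists were chosen with earlier results of these data known. Values per library are given, in each organ, for the 8 members with the lowest p past the test, the member with the highest mean CPM of each role, and members past the test between organs, and some others are given the same way. From the other lists, the 2 genes with the lowest p per organ are named. Exon lengths, overlapping exons and shared 50-base stretches came from GENCODE M21 and promoters from RefSeq, both on GRCm38 builds older than mm39, so they can differ from the models counted. Stretches that also occur in other genes made up 39.7% of those of Hspd1, 38.6% of Hspa8, 18.4% of Hspe1 and 11.9% of Dnaja1. Exons of Hsp90b1, Dnajb9, Pdia6, Manf, Atf5, Ppp1r15a, Hspa1a, Dnaja1, Ddit3, Hspd1 and Hspe1 overlap a gene on the opposite strand, and without strand their reads cannot be told apart. Protein sequences were not used here. Alternatives were other scalings, no filter, DESeq2 1.42.0, limma-voom, a replicate block, each library left out and, chosen after seeing the data, Hspa1a and Hspa1b summed.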

Additional observations from a re-analysis of the deposited data

Results flagged for a closer look

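The response to CLP differed between the organs for 4 members by the test of the difference itself, the lung log2 fold change minus that of liver in 1 edgeR model of all 12 libraries. Of the 38 members 1 was higher (2.63% beside 8.89% of all genes) and 3 were lower (7.89% beside 8.84%). The share of members lower was near that of all genes, and the share higher rests on 1 member. Dnaja1 gave 0.87 (adjusted p = 0.0162): it fell in liver, where all 3 CLP libraries were below all 3 sham libraries, and its lung groups overlapped. Bag3 gave -0.91 (adjusted p = 0.00453), with all 3 CLP livers above all 3 sham livers and overlapping lungs. Hsp90aa1 gave -0.74 (adjusted p = 0.0437), being higher after CLP in 3 of 3 libraries of both organs. Chac1 gave -1.97 (adjusted p = 0.0341), and its CLP livers ran from 17.3 to 58.9 CPM. Over 19 alternatives the adjusted p ran from 0.00157 to 0.0472 for Dnaja1, 0.000221 to 0.0232 for Bag3, 0.0177 to 0.153 for Hsp90aa1 and 0.00156 to 0.173 for Chac1.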

How the results depend on the processing

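Each comparison was repeated with other scalings, tests and filters and with each library left out. Of the calls on members, 7 of 11 in liver (Atf4, Atf5, Bag3, Dnaja1, Hsp90aa1, Ppp1r15a and Xbp1) and 11 of 17 in lung (Asns, Atf4, Atf5, Herpud1, Hspa5, Hspb1, Manf, Ppp1r15a, Psat1, Sesn2 and Xbp1) were kept in all 13 alternatives, and 2 of 4 between the organs (Bag3 and Dnaja1) in all 19. With 1 library left out, the members higher ranged from 5 to 8 in liver and from 10 to 16 in lung. The members lower ranged from 2 to 6 in liver and from 1 to 4 in lung, and between the organs 1 to 2 were higher and 1 to 4 lower. With an arm of 2 libraries the spread is taken from the remaining libraries of both groups. The cause of these changes was not tested, beyond the fewer samples.

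On library totals the median log2 fold change of all genes moved to -0.21 in liver and -0.13 in lung, and with upper-quartile scaling to -0.10 and -0.14. On library totals 1689 genes were higher and 3796 lower in liver, against 2647 and 2600 as reported, and 2977 and 4847 in lung, against 3698 and 3850. Upper-quartile scaling gave 2122 and 3144 in liver and 2929 and 4946 in lung. Of the members, 5 were higher in liver and 10 in lung on library totals, against 6 and 13 as reported. With upper-quartile scaling 6 and 10 were higher. Between the organs library totals gave 1861 and 965 genes against 1432 and 1424. In the sham libraries they gave 11983 genes and 14 members higher in lung and 2401 genes and 18 members lower. There the sign turned for Atf4 (0.37), Ddit3 (1.19), Trib3 (0.87), Hspa1b (0.41), Hsph1 (0.25), Hsp90aa1 (0.89), Hsp90ab1 (0.84), Chordc1 (0.48) and Bag3 (0.18).

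The labels number replicates 1 to 3 in every group without saying what a number shares. To look for such sharing, the log2 CPM of each gene was taken as its deviation from the mean of the library's own group. These deviations, not the levels themselves, were correlated between libraries. For same-numbered CLP and sham libraries the correlations were 0.035 to 0.206 in liver (2 of 3 best with their own number) and -0.087 to -0.057 in lung (0 of 3). Across organs the correlations were 0.075 to 0.295 in CLP (3 of 3 best with their own number) and -0.051 to 0.144 in sham (1 of 3). The numbers were not taken as pairs, since no set of 3 was above 0.1 throughout. In the CLP set, liver replicate 2 gave 0.075 with its own number and 0.045 with lung replicate 1. With 3 libraries a group, these correlations cannot decide whether a number is shared across organs. The block between the organs takes surgery and number together. With a replicate block, 9 members were higher and 4 lower in liver, 12 and 4 in lung, and 2 and 3 between the organs. In liver Hspa5, Dnajb9, Manf and Herpud1 gained a call under the block (adjusted p = 0.0186, 0.0164, 0.0431 and 0.00587), and Chac1 and Hspa1b had adjusted p = 0.0776 and 0.0545.

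Depth limits Hspa1a in liver, where it had 1 to 5 counts in every library and was not tested for CLP.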
